A study of Homo sapiens with 8 samples.

Results

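The line-by-caffeine interaction is the difference between the caffeine response of SW620 cells and that of SW480 cells, computed for each gene as the log2 fold change (caffeine against control) in SW620 minus the same quantity in SW480. All 8 libraries of the study enter it. Of 17671 genes tested, 1185 had a response that differed between the lines (adjusted p under 0.05, edgeR's quasi-likelihood test), and these genes are described here. SW480 and SW620 are established colorectal adenocarcinoma lines from the same patient, SW480 from the primary tumour and SW620 from a lymph node metastasis. Per the labels, each line also carried B8-mCherry, a fluorescent fusion of an immunoproteasome subunit, in control and caffeine cultures alike. The 4 groups of 2 libraries were untreated SW480, caffeine-treated SW480, untreated SW620 and caffeine-treated SW620. The labels list caffeine doses of 30, 60, 100, 250 and 500 µM over 72 h, and 125 µM over 28 days, for SW620 cultures. The regimen of the sequenced cultures is not stated, and none is given for SW480, so a difference in regimen and a difference between lines cannot be told apart here.

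Caffeine is a methylxanthine that blocks adenosine receptors, inhibits cyclic nucleotide phosphodiesterases, releases calcium from internal stores through ryanodine receptors and, at high doses, inhibits the checkpoint kinases ATM and ATR. A response can differ between related lines in several formal ways. A gene may rise in the one and fall in the other, may change in the one without a detectable change in the other, or may move the same way by unequal amounts. The interaction contrast tests the difference itself. The class of a called gene, by contrast, was read from the same fit and has no test of its own, and a gene not called in a line is not thereby shown to be unresponsive there.

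The libraries held 15760259 to 23269315 reads assigned to genes, and 3 counts, which bound an observed 0 from above (95%, counting error only), were worth 0.129 to 0.19 CPM, the unit used throughout (a gene's reads relative to the library's total, after trimmed-mean normalization). The epithelial genes EPCAM and KRT8 were at 157.2 to 184.5 and 2091.8 to 3170.6 CPM in SW480 and at 572.7 to 705.4 and 5513 to 7236 CPM in SW620. Leukocyte markers summed to 2.42 to 5.25 CPM over all libraries, with FCGR3A and MS4A1 at 0 throughout. The 12 fibroblast markers, of which COL3A1 and POSTN were at 0, summed to 45 to 53.2 CPM in SW480, and in SW620 to 63.5 and 65 CPM without and 73.1 and 76.1 with caffeine. The 10 endothelial markers summed to 33.8 to 44.5 CPM in SW480, and in SW620 to 18.9 and 20.3 CPM without and 27.7 and 29.8 with caffeine. Of their tested members, 0 of 5 and 1 of 5 (VWF) had a called interaction; the part of these markers in the results was not tested. SW480 caffeine replicate 2 had 1.63% of its reads on mitochondrially encoded genes, against 4.38% to 6.16% in the other 7 libraries. Replicates varied more in SW480 (biological coefficient of variation 13.1%) than in SW620 (7.01%), and the fit used 1 estimate for all groups. The labels speak of biological replicates without saying whether they were grown on separate days, and the p-values measure only the spread between these cultures.

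More genes responded more positively in SW620 than the reverse. The interaction was called for 6.71% of tested genes, with a higher value in SW620 for 749 (4.24%) and a lower value for 436 (2.47%). The median interaction over all tested genes was -0.02, a value that the scaling sets near 0. Of the 1185 genes, 64 were called in both lines with opposite signs (0.362% of tested genes), 780 were called only in SW620 (4.41%), 162 only in SW480 (0.917%), 6 in both lines in the same direction, and 173 in neither line. These shares are the background for each count of named genes below. The p-values were adjusted in each contrast separately, so a given unadjusted p could pass in SW620 and miss in SW480. By edgeR's test, 0.00295 became 0.0646 in SW480 (SORCS2), while 0.00245 became 0.0245 in SW620 (EPB41L4A-AS1). The sizes of the line-only classes depend in part on this. For scale, caffeine against control was called for 14.4% of genes in SW620 (8.1% higher, 6.25% lower) and 3.6% in SW480 (1.67% higher, 1.93% lower). In all, 166 genes were called in both lines, which is 26.1% of the SW480 calls and 6.54% of the SW620 calls. Of these 166 genes, 102 moved the same way and 64 moved oppositely. The 2 responses share no library.

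For most genes called in 1 line only, the difference between the lines did not itself pass the test. Of 2371 genes called in SW620 and not in SW480, the interaction was called for 780 (32.9%), and of 470 called in SW480 and not in SW620 for 162 (34.5%). Among the 1185 genes, the point estimates of the 2 lines had opposite signs for 994 (83.9%), against 47.7% of all tested genes. A large interaction favours opposite signs, so this share follows in part from the way the genes were chosen.

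**Figure D1:**
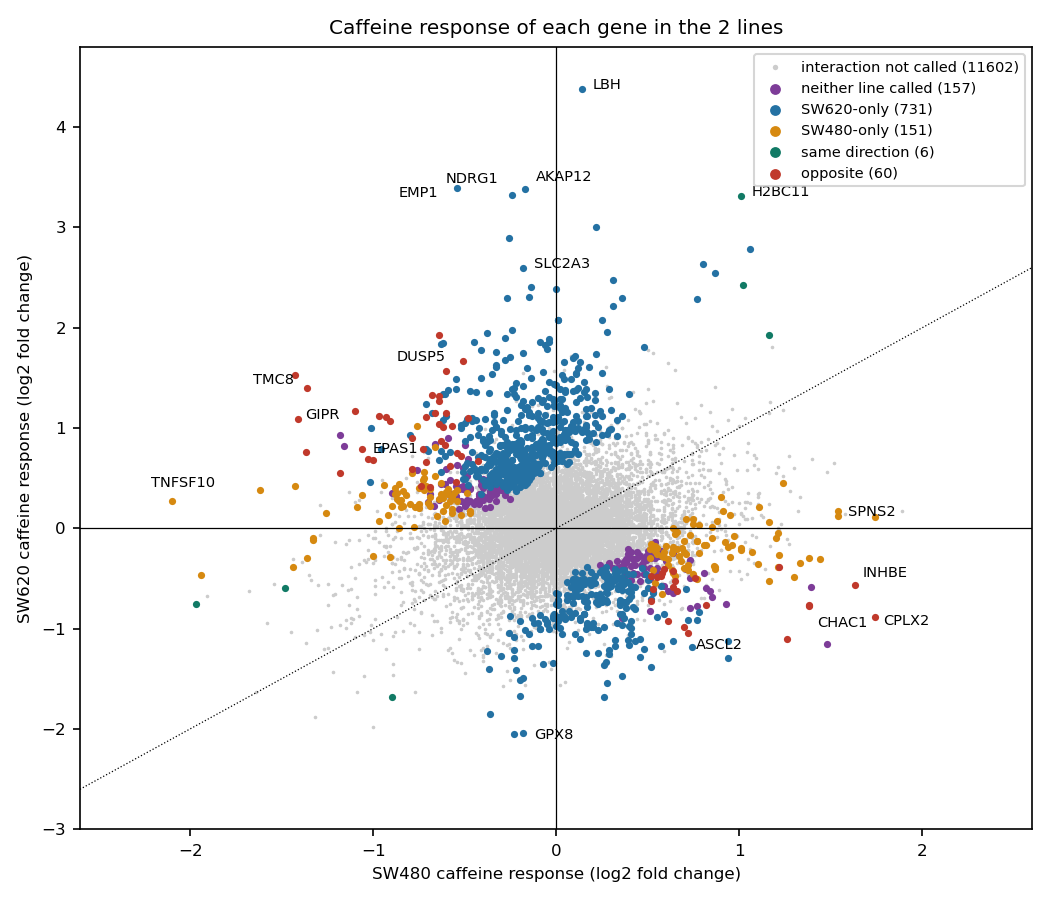
Each point is a gene with a mean of at least 1 CPM in both lines, placed by its log2 fold change with caffeine in SW480 (horizontal) and in SW620 (vertical), coloured by class, with the number of genes drawn in brackets; the dotted line marks equal responses. The opposite genes (red) lie in the upper left and lower right, the SW620-only genes (blue) stretch up to LBH at 4.38, and the SW480-only genes (orange) spread along the horizontal axis.

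Of the 64 genes with opposite responses, 40 rose in SW620 and fell in SW480, and 24 did the reverse. The median log2 fold changes of the 40 were -0.7 in SW480 and 1.03 in SW620, and those of the 24 were 0.68 and -0.62. All 64 had an interaction above 1 in size, and 60 had at least 1 CPM on average in each line. Protein-coding genes made up 92.2% of them, against 80% of tested genes. The share was similar in the SW620-only (90.8%) and SW480-only (91.9%) classes, so it is not particular to the opposite genes.

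Membrane receptors and channels were among the genes that rose in SW620 and fell in SW480. TMC8 (EVER2), a transmembrane channel-like protein known from epidermodysplasia verruciformis, stood at 28 and 19.8 CPM in the SW480 controls (replicates 1 and 2), 9.46 and 9.15 with caffeine, 37.9 and 37.2 in the SW620 controls, and 105.8 and 92.9 with caffeine. Its caffeine libraries were thus below both controls in SW480 and above both in SW620, with no overlap. The log2 fold changes were -1.36 ± 0.17 (SE; adjusted p = 0.000416) and 1.4 ± 0.15 (adjusted p = 1.27e-05), and the interaction was 2.77 ± 0.23 (adjusted p = 3.02e-06). TMC6 (EVER1), its partner in the same complex, moved likewise. It measured 92.4 and 94.4 CPM without and 53.7 and 64.2 with caffeine in SW480, and 64.7 and 60.4 without and 141.6 and 136.1 with caffeine in SW620. The interaction of TMC6 was 1.81 ± 0.18 (adjusted p = 1.9e-05).

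On GRCh38 the TMC6 and TMC8 genes overlap on chromosome 17, TMC6 from 78110458 to 78132407 and TMC8 from 78130770 to 78142968. TMC8 exons share 231 bases with those of TMC6 on the opposite strand. How reads there were counted depends on a strand setting not given in the sources used here. Of the 64 genes, 6 lay within 100 kb of another member: besides this pair, FGF21 and FUT1 on chromosome 19, which are 169 bases apart, and CDK18 and LEMD1 on chromosome 1, which are 47504 bases apart. Both members of each pair moved in the same direction as each other. A neighbour of the same class within 100 kb was also found for 157 of 771 SW620-only and 10 of 160 SW480-only genes with a position. No share was computed for all tested genes, so whether 6 of 64 is more than the background was not tested.

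GIPR, the receptor of the incretin hormone GIP and coupled to cAMP production, measured 12.6 and 11.2 CPM in the SW480 controls and 5.02 and 6 with caffeine, and 6.83 and 6.87 CPM in the SW620 controls and 17.1 and 13.9 with caffeine. The SW480 controls were therefore above the SW620 controls, and with caffeine the order was reversed. The interaction of GIPR was 2.27 ± 0.25 (adjusted p = 4.45e-05). P2RX1, an ATP-gated cation channel, and TRPV2, another cation channel, had interactions of 2.09 ± 0.27 and 1.59 ± 0.18. EFNA3, a membrane-anchored ligand of Eph receptors, had an interaction of 2.96 ± 0.42 (adjusted p = 0.000419) and was low, at 4.9 and 4.2 CPM in the SW480 controls and 0.911 and 0.752 in those of SW620. EFNA3 exons share 853 bases with another annotated gene on the same strand, and reads there cannot be assigned to either with certainty.

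Several transcriptional regulators had the same pattern. KLF9, a Krüppel-like factor induced by glucocorticoids, fell from 11.8 and 8.06 CPM to 3.54 and 4.09 in SW480 and rose from 7.94 and 6.67 to 12 and 12.8 in SW620. Its libraries did not overlap between treatments in either line, and the interaction was 2.13 ± 0.29 (adjusted p = 0.000274). RORA, a nuclear receptor of the circadian clock, was at 56 and 40 CPM without and 33.9 and 27.8 with caffeine in SW480, and at 5.06 and 4.46 without and 10.3 and 12.6 with caffeine in SW620. The interaction of RORA was 1.91 ± 0.26 (adjusted p = 0.000355), and its level stayed higher in SW480 in every library. The class IIa histone deacetylase HDAC5 (interaction 1.75 ± 0.21) and the clock repressor BHLHE41 (2.29 ± 0.45) had the same pattern.

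Regulators of signalling and of cell shape formed a further part of the 40. DUSP5, a phosphatase of ERK that ERK itself induces, stood at 45.3 and 45 CPM without and 33.2 and 30.1 with caffeine in SW480, and at 32.4 and 32.7 without and 112.2 and 94.7 with caffeine in SW620. The SW620 caffeine libraries were the highest of the 8, and the interaction was 2.18 ± 0.19 (adjusted p = 4.15e-06). AMOT, a scaffold that binds YAP, had log2 fold changes of -0.91 ± 0.15 in SW480 and 1.07 ± 0.22 in SW620. JUP (plakoglobin), a desmosome and adherens junction protein, measured 76 and 75.6 CPM without and 48.9 and 50.7 with caffeine in SW480, and 168.4 and 164.5 without and 289 and 304.7 with caffeine in SW620. The pyrimidine salvage enzyme CDA (interaction 2.03 ± 0.26), the long noncoding RNA LINC03061 (2.5 ± 0.39), and KIAA1217 (1.69 ± 0.21) and FRMD4B (1.85 ± 0.29) complete the genes named by size. Others of the 40 were ACP7, ADGRL2, ARHGEF4, BCL2L15, CDK18, CSRNP1, INSIG2, KIAA0040, LEMD1, LIMA1, MIR22HG, PTPRF, RAC2, RAP1GAP, RGCC, RHBDF1, SAMD4A, SERPINB9, SNX9, SYT12, TGFB1 and TNFRSF12A.

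**Figure D2:**
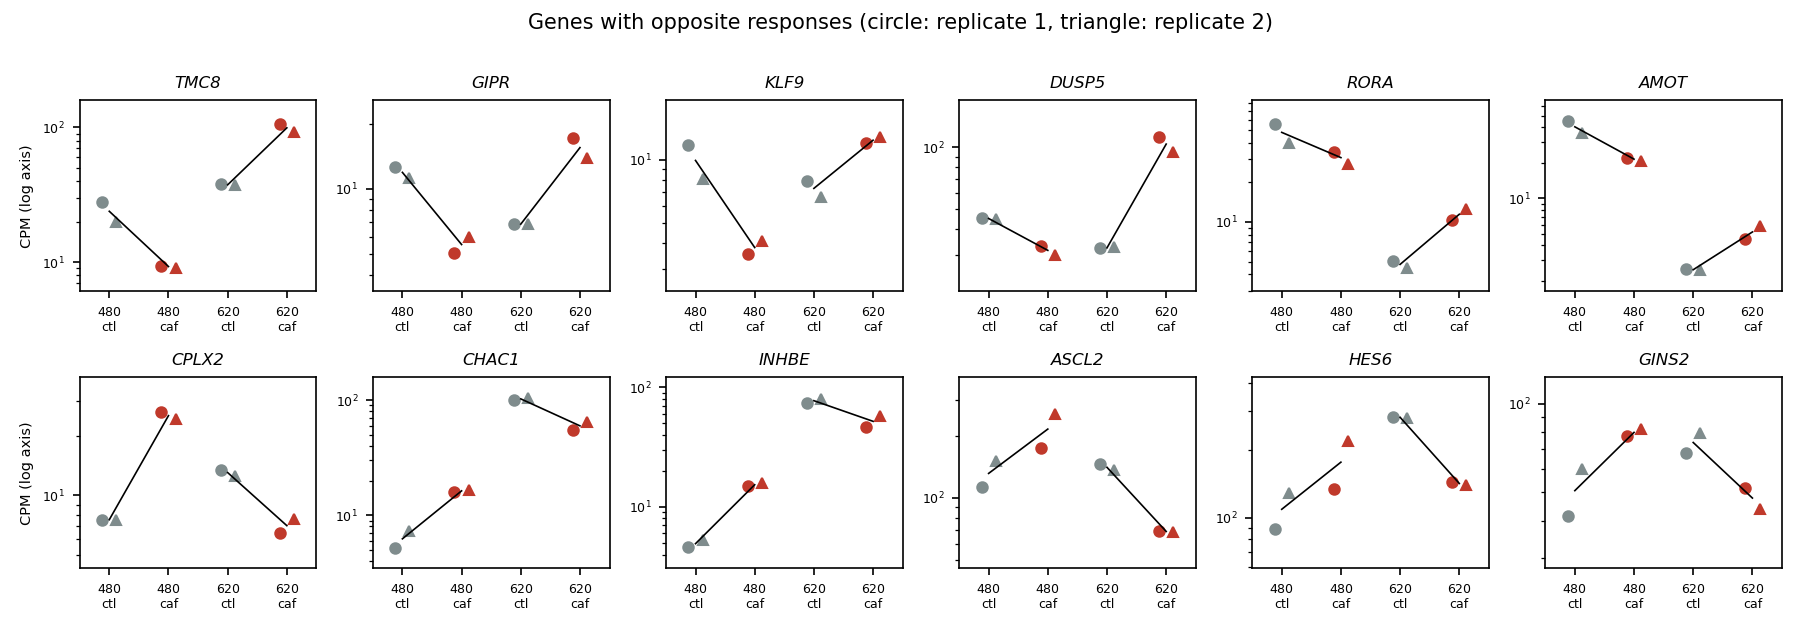
CPM of each library (log axis, own range per gene) for 12 genes with opposite responses, in controls (grey) and caffeine cultures (red) of SW480 and SW620; circles are replicate 1, triangles replicate 2, and lines join the group means. The top row falls in SW480 and rises in SW620 and the bottom row does the reverse; for CHAC1 and INHBE every SW620 library lies above every SW480 library.

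The 24 genes that rose in SW480 and fell in SW620 held 5 genes of the ATF4 and amino acid response. ATF4 is a transcription factor whose translation increases when the initiation factor eIF2 is phosphorylated, as in amino acid shortage or endoplasmic reticulum stress. Its targets take up and make amino acids and include negative regulators of growth. CHAC1, an enzyme that degrades glutathione, stood at 5.2 and 7.3 CPM in the SW480 controls, 16 and 16.6 with caffeine, 100.1 and 104.8 in the SW620 controls, and 55.1 and 64.4 with caffeine. The caffeine libraries lay above the controls in SW480 and below them in SW620, and all SW620 libraries lay above all of SW480. The log2 fold changes were 1.38 ± 0.17 (adjusted p = 0.000416) and -0.78 ± 0.14 (adjusted p = 0.00138), and the interaction was -2.16 ± 0.22 (adjusted p = 2.27e-05). INHBE, an activin subunit of the TGF-beta family, rose from 4.6 and 5.25 to 14.8 and 15.8 CPM in SW480 and fell from 73.8 and 80.3 to 46.6 and 57 CPM in SW620 (interaction -2.2 ± 0.22, adjusted p = 1.9e-05).

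The other 3 were FGF21, a hormone of metabolic stress, PSAT1, an enzyme of serine synthesis, and ATF5, a factor related to ATF4. FGF21 was low, at 0.303 and 0.175 CPM without and 0.901 and 1.06 with caffeine in SW480, and at 2.33 and 2.86 without and 1.19 and 1.31 with caffeine in SW620. PSAT1 measured 157.7 and 172.8 CPM without and 241.2 and 232.6 with caffeine in SW480, and 544.6 and 590.8 without and 383.9 and 428.1 with caffeine in SW620. In both genes the treatments did not overlap in either line, and the interactions were -3.08 ± 0.58 for FGF21 (adjusted p = 0.00437) and -1 ± 0.17 for PSAT1 (adjusted p = 0.00171). ATF5 had log2 fold changes of 0.53 ± 0.13 in SW480 and -0.61 ± 0.13 in SW620. ADM2, a peptide of the calcitonin family that is not on the list, had 1.22 and -0.39.

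Over the list of 38 tested genes of this response, 15 had a lower response in SW620 and 0 a higher one, that is 39.5% against 2.47% of all tested genes called lower. The median interaction was -0.56, against -0.02 over all genes, with median log2 fold changes of 0.4 in SW480 and -0.06 in SW620. Besides the 5 opposite genes, 5 fell only in SW620, 3 rose only in SW480 and 2 were called in neither line. Those falling in SW620 were JDP2, PHGDH, PSPH, SLC7A5 and STC2. JDP2, a bZIP repressor of AP-1, measured 34.4 and 33.3 CPM without and 15.8 and 16.8 with caffeine in SW620, against 15.1 and 14 without and 19.8 and 18.7 with caffeine in SW480 (interaction -1.46 ± 0.19, adjusted p = 0.000236). SESN2, a leucine sensor that restrains mTORC1, rose in SW480 from 10.6 and 9.86 to 21 and 20.4 CPM, and in SW620 measured 71.1 and 67.6 without and 55.4 and 63.5 with caffeine (interaction -1.23 ± 0.19, adjusted p = 0.00098). The cystine transporter SLC7A11 and DDIT4, an inhibitor of mTORC1, were the other 2 called in SW480 alone. The list contained 23 further genes whose interaction was not called, among them ASNS, DDIT3, TRIB3 and CEBPB. Leaving out each library in turn gave 10 to 20 list members with a lower response in SW620 and 0 or 1 with a higher one.

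Promoter sequence is shown for genes of this response, and for 1 of the hypoxia genes described further on, because members of each list moved together and their factors are known to bind short motifs. The windows run from 250 bases before to 50 bases after each start in RefSeq (GRCh38.p14) and are written 5′ to 3′ on the gene's strand. The ATF4 response element is searched as TGATGNAA and the hypoxia response element as its core ACGTG, each on both strands; capitals mark the match, and in CHAC1 it reads on the reverse strand. The windows are chr15:40953221-40953520 for CHAC1, chr14:75427772-75428071 for JDP2 and chr12:6914330-6914629 for ENO2, all on the plus strand.
CHAC1: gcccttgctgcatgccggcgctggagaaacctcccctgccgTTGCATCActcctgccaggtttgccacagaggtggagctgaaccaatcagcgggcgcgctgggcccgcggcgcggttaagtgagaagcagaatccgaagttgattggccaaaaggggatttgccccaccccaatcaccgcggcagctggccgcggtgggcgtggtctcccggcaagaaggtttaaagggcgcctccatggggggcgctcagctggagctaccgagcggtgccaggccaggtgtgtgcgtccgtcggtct
JDP2: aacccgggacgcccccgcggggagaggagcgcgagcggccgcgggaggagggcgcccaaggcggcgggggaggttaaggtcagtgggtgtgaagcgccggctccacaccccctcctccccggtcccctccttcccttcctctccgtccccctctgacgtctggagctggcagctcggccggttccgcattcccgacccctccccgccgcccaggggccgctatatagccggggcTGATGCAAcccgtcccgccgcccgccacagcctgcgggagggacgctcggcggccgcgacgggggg
ENO2: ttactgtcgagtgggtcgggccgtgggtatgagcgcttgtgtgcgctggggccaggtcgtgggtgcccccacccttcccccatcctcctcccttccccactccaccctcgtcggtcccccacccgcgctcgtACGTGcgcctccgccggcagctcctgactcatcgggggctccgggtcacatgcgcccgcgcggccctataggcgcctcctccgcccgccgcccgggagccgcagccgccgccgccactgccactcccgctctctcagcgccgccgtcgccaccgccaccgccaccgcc

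The match begins at position -209 relative to the start in CHAC1, -16 in JDP2 and -118 in ENO2. Of the 15 called members of the ATF4 list, 12 had a RefSeq entry, and TGATGNAA was in a window of 4 of them (CHAC1, FGF21, JDP2 and SLC3A2), or 33.3%, against 2.83% of 12073 tested genes with an entry and 3.62% of all 35116 promoter windows. Of the 25 called members of the glycolysis and hypoxia list 22 had an entry, and ACGTG was in a window of 15 (68.2%), against 31.6% of tested genes and 21.4% of all windows. Members of both lists were included as known responders of these factors, so high shares are not specific to the called genes: TGATGNAA was in a window of 6 of 19 tested ATF4 list members that were not called (31.6%), and ACGTG of 8 of 15 in the other list (53.3%). Over the 48 opposite genes with an entry, TGATGNAA was in a window of 3 (6.25%) and ACGTG of 13 (27.1%). A gene with several listed starts has more windows to match, and ACGTG also lies inside the E-box CACGTG. A match describes the sequence and does not show that a factor was bound.

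The remaining genes that rose in SW480 and fell in SW620 were mostly of other functions. CPLX2, a complexin that regulates vesicle fusion, rose from 7.56 and 7.53 CPM to 26.3 and 24.3 in SW480 and fell from 13.5 and 12.6 to 6.43 and 7.65 in SW620. The SW480 caffeine libraries were the highest of the 8 and the SW620 caffeine library of replicate 1 the lowest, and the interaction was -2.63 ± 0.22 (adjusted p = 4.15e-06). ASCL2, a Wnt-dependent factor of intestinal stem cells, was at 112.7 and 150.4 CPM without and 175.4 and 256.8 with caffeine in SW480, and at 145.4 and 136.3 without and 69.2 and 68.2 with caffeine in SW620 (interaction -1.75 ± 0.23, adjusted p = 0.000259). HES6, which antagonises the Notch target HES1, had 88.8 and 128.9 CPM without and 134.8 and 219.2 with caffeine in SW480, and 282.8 and 279.6 without and 144.4 and 139.8 with caffeine in SW620. In SW480 the caffeine libraries of HES6 lay above the controls by a narrow margin, with an adjusted p of 0.0492.

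GINS2, a subunit of the replicative helicase, and ODC1, the enzyme that starts polyamine synthesis, also rose in SW480 and fell in SW620, with interactions of -1.28 ± 0.23 and -1.07 ± 0.2. IGFBPL1 (-2.36 ± 0.37), the carboxylesterase CES3 (-2.15 ± 0.34), the zinc finger gene ZNF688 (-1.6 ± 0.27), ADAMTSL2 (-1.53 ± 0.2) and the noncoding EPB41L4A-AS1 (-1.23 ± 0.24) were the others named by size. EPB41L4A-AS1 shares 1659 exon bases with EPB41L4A on the opposite strand, so its reads and those of EPB41L4A cannot be told apart without the strand setting. The rest were ACAP3, the gene listed only as ENSG00000253746, FUT1, GNAI1, RGS16, SPPL2B, TCF19 and VPS9D1-AS1.

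The 780 genes called only in SW620 comprised 543 that rose and 237 that fell, and 731 had at least 1 CPM on average in both lines. For 701 of the 780, the 95% interval of the SW480 log2 fold change lay within 1 of 0. The median SW620 log2 fold changes were smaller than this margin, at 0.85 for the risers and -0.84 for the fallers. Such an interval can therefore still hold a response of that size. Of the 780, 209 had an unadjusted p under 0.05 in SW480, so their absence from the SW480 calls is less secure. LBH, a transcriptional cofactor and Wnt target, was at 1.32 and 1.25 CPM in the SW620 controls and 24.3 and 29.4 with caffeine, against 69.7 and 65.2 without and 74.5 and 74 with caffeine in SW480. SW620 thus differed between treatments by a log2 value of 4.38 ± 0.19, while the SW480 value was 0.14 (95% interval -0.13 to 0.41), and the interaction was 4.24 ± 0.23 (adjusted p = 2.01e-08).

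AKAP12, an anchoring protein for protein kinase A that is itself induced by cAMP, rose from 71.9 and 71.6 to 737.4 and 754.5 CPM in SW620, and measured 107.2 and 80.5 without and 77.5 and 88.6 with caffeine in SW480. With caffeine SW620 held far more AKAP12 RNA than any other library, whereas the SW480 treatments overlapped (interaction 3.55 ± 0.2, adjusted p = 2.01e-08). EMP1, a small tetraspan membrane protein, went from 6.93 and 7.62 to 84.5 and 68.4 CPM in SW620. In SW480 EMP1 measured 52.2 and 41.8 CPM without and 38.2 and 26.7 with caffeine, with no overlap. Its SW480 log2 fold change was -0.54 ± 0.17 (adjusted p = 0.0967 by edgeR's test), so a fall there is not excluded. PTPRH, a receptor tyrosine phosphatase, and the noncoding LINC00659 had interactions of 3.16 ± 0.32 and 2.58 ± 0.23. Other genes of the cAMP list followed AKAP12: of its 20 tested members 4 had a higher response in SW620, 0 a lower one, and all 4 (AKAP12, PER1, NR4A1 and FOS) were called in SW620 alone. FOS had an adjusted p of 0.0485 in SW620 and 0.0503 in SW480, and its point estimates were 0.34 and -0.41.

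Genes of glycolysis and of the hypoxia response made up the largest share of any list. Hypoxia-inducible factors accumulate when the prolyl hydroxylases that mark them for degradation are inactive, and they raise glucose uptake, glycolysis and lactate export. Of 41 tested genes 25 had a higher response in SW620 and 0 a lower one (61%, against 4.24% of all tested genes called higher), with a median interaction of 0.84 and median log2 fold changes of 0.06 in SW480 and 0.87 in SW620. Of the 25, 23 rose only in SW620, INSIG2 was opposite and EPAS1 fell only in SW480. Without each library in turn, 18 to 28 members were called higher in SW620 and 0 or 1 lower.

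The list holds transporters, enzymes and regulators. SLC2A3 (GLUT3) measured 35.3 and 29.2 CPM in the SW620 controls and 210.7 and 181.3 with caffeine, against 889.8 and 811.2 without and 751 and 754.8 with caffeine in SW480 (interaction 2.78 ± 0.19, adjusted p = 1.79e-07). SLC2A1 (GLUT1) had an interaction of 1.03 ± 0.17. Among the glycolytic enzymes, ENO2 rose in SW620 from 31.2 and 27.3 to 117.6 and 100.1 CPM and measured 90.8 and 83.2 without and 72.5 and 71 with caffeine in SW480 (interaction 2.17 ± 0.19, adjusted p = 4.15e-06). PGK1, ALDOC, HK1 and PFKFB4 had interactions of 1.37 ± 0.18, 1.95 ± 0.25, 1.42 ± 0.17 and 1.53 ± 0.21, and LDHA, which makes lactate, of 1.1 ± 0.19. NDRG1, a stress-responsive gene of hypoxia, went from 8.91 and 7.82 to 83 and 84.6 CPM in SW620 and measured 130.8 and 109 without and 110.8 and 92.4 with caffeine in SW480. With caffeine, SW620 thus stood below every SW480 library and far above both of its own controls (interaction 3.56 ± 0.21, adjusted p = 2.77e-08).

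Regulators of oxygen sensing were also in this group. EGLN3, a prolyl hydroxylase that hypoxia-inducible factors induce, rose from 14.8 and 14.6 to 79.4 and 65.6 CPM in SW620 and measured 35.1 and 40.3 without and 46.5 and 49.9 with caffeine in SW480 (interaction 1.94 ± 0.2, adjusted p = 2.27e-05). The mitophagy receptor BNIP3L and the histone demethylase KDM3A had interactions of 1.94 ± 0.2 and 1.42 ± 0.18. EPAS1, which encodes HIF-2 alpha, behaved differently: it measured 967.2 and 788.7 CPM without and 588.9 and 522.9 with caffeine in SW480, and 1.27 and 1.15 without and 1.85 and 2.37 with caffeine in SW620. Every SW480 library lay far above every SW620 library. The SW480 fall passed the test (adjusted p = 0.0122) and the SW620 value of 0.81 ± 0.26 missed it (adjusted p = 0.0509); without SW620 caffeine replicate 2 the interaction was not called. Members whose interaction was not called included HIF1A, VEGFA, CA9, ADM, PKM and ENO1.

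**Figure D3:**
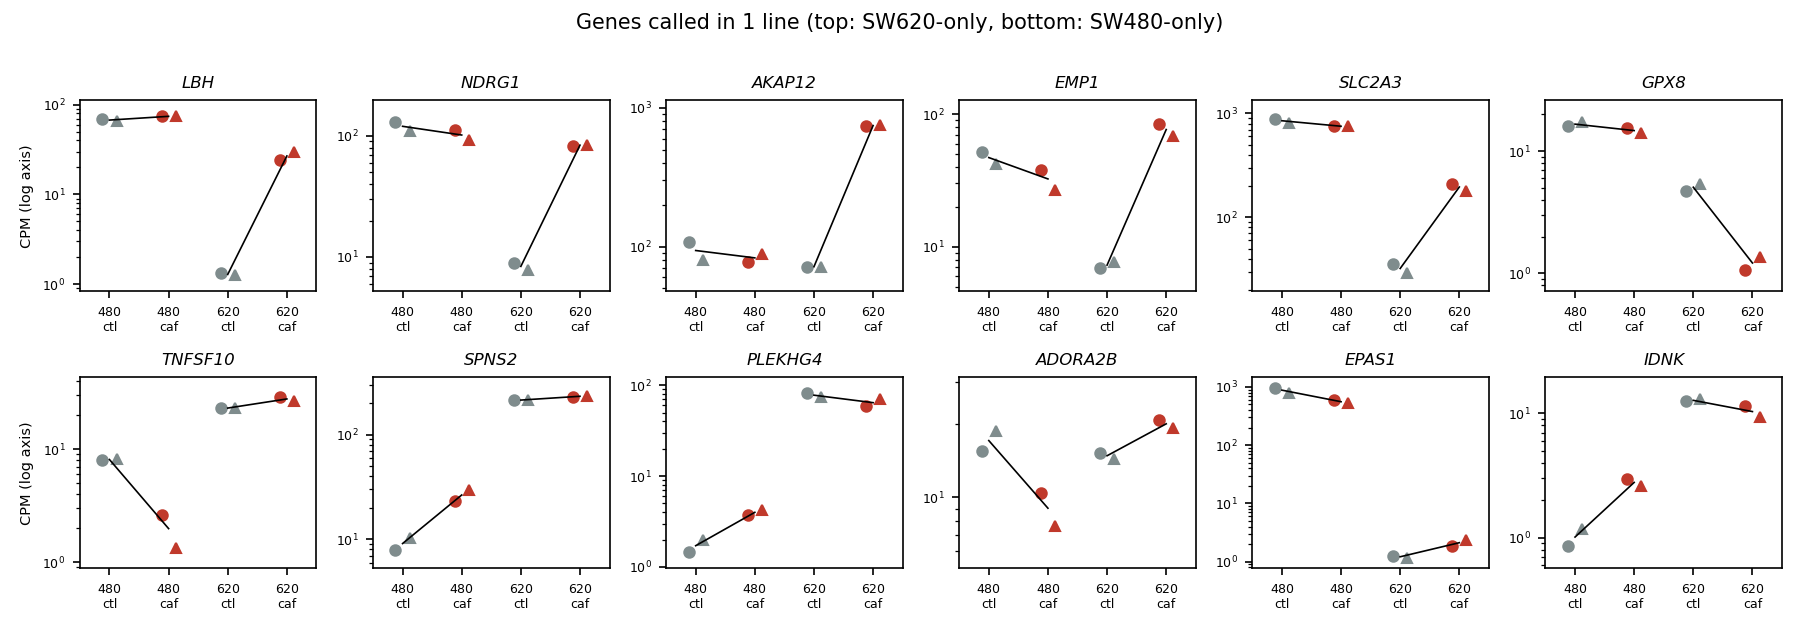
CPM of each library (log axis, own range per gene) for 6 genes called only in SW620 (top) and 6 called only in SW480 (bottom), in controls (grey) and caffeine cultures (red); circles are replicate 1, triangles replicate 2, and lines join the group means. In the top row the larger change is in SW620, and in the bottom row SPNS2 and PLEKHG4 rise from levels far below those of SW620.

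Matrix and invasion genes, mitotic genes and histone genes also rose mainly in SW620. In the mesenchymal, matrix and invasion list, 10 of 27 tested genes had a higher response in SW620 and 1 (CTHRC1) a lower one (40.7% called, median interaction 0.63). VIM (vimentin), an intermediate filament protein, measured 343.1 and 347.4 CPM without and 992.3 and 863.9 with caffeine in SW620, and 322.3 and 395.9 without and 410 and 309.2 with caffeine in SW480, where the treatments overlapped (interaction 1.43 ± 0.21, adjusted p = 0.000555). L1CAM, an adhesion molecule, and LAMA3, a laminin chain, each had an interaction of 1.61 ± 0.22. FN1, LAMB3, PLAUR and COL13A1 rose only in SW620 and TGFB1 was opposite. COL13A1 had 0 CPM in both SW620 controls and 0.238 and 0.201 with caffeine, near the level of 3 counts, against 9.46 to 14.5 CPM in SW480. In the epithelial adhesion list 6 of 27 genes were called, all with a higher response in SW620 as well. With each library omitted in turn the epithelial count ran from 2 (SW620 control replicate 2 or caffeine replicate 2 omitted) to 8, and was 3 when SW620 control replicate 1 was dropped. CDH1 (E-cadherin) rose in SW620 from 192 and 198.9 to 367.9 and 395.6 CPM and lay under 1 CPM in every SW480 library.

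Of 34 tested genes of G2/M and mitosis, 10 had a higher response in SW620 and 0 a lower one (29.4%, median interaction 0.52), all called only in SW620. ANLN (anillin), a cytokinesis scaffold, rose from 76.9 and 82.3 to 158.6 and 175.8 CPM in SW620, and measured 338.1 and 303.2 without and 359.8 and 337.6 with caffeine in SW480 (interaction 0.95 ± 0.17, adjusted p = 0.00255). BUB1, a spindle checkpoint kinase, and KIF20A, a mitotic kinesin, had interactions of 0.9 ± 0.17 and 0.86 ± 0.17. Genes of DNA replication and S phase went the other way: 6 of 39 had a lower response in SW620 and 0 a higher one (15.4%, median interaction -0.46). PCNA, the sliding clamp of DNA polymerases, fell in SW620 from 316.2 and 334.5 to 185.7 and 168 CPM and measured 512.3 and 628 without and 596.5 and 610.3 with caffeine in SW480 (interaction -0.96 ± 0.18, adjusted p = 0.0038). FEN1 and E2F1 also fell only in SW620 and TYMS rose only in SW480. Both counts moved with single libraries. The mitotic count was 3 on dropping either SW620 control, 5 and 6 on dropping caffeine replicate 2 of SW620 and of SW480, and at most 15. The replication count was 3 without SW620 control replicate 1 and 11 on dropping SW480 control replicate 2 or SW480 caffeine replicate 1.

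Among 31 tested replication-dependent histone genes, 7 had a higher response in SW620 and 0 a lower one, with a median interaction of 0.9. H2BC4 measured 1.06 and 1.65 CPM without and 12.2 and 9.66 with caffeine in SW620, and 1.51 and 1.52 without and 2.64 and 1.11 with caffeine in SW480 (interaction 2.78 ± 0.5, adjusted p = 0.00332). H2BC11, H1-2 and H2AC6 rose in both lines and more in SW620, and with COL27A1, IGFL2-AS1 and MUC13, which fell in both lines, they were all 6 genes of the same-direction class. H2BC11 went from 4.66 and 6.71 to 13.3 and 9.96 CPM in SW480 and from 2.99 and 3.66 to 32.9 and 33.1 in SW620, an interaction of 2.29 ± 0.29. Most histone mRNAs of this kind lack a poly-A tail and the libraries were made from poly-A RNA, so these values cover the polyadenylated part alone, and near-identical histone copies may share reads.

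Clock, inflammatory and growth factor feedback genes were also among those called. Of 19 tested circadian clock genes 7 had a higher response in SW620 (median interaction 0.39). PER1, a clock repressor and CREB target, measured 9.51 and 10.5 CPM without and 30.2 and 26.7 with caffeine in SW620, and 32.7 and 29.8 without and 30.2 and 26.7 with caffeine in SW480 (interaction 1.64 ± 0.2, adjusted p = 0.000126). BHLHE40 (1.75 ± 0.17), NFIL3 (1.09 ± 0.19) and BMAL1 (0.92 ± 0.22) also rose only in SW620, and NR1D1 fell only in SW480. NR1D1 and BMAL1 each lost the interaction call without 2 or more of the 8 libraries in turn. In the NF-kB and inflammatory list 6 of 26 genes had a higher response in SW620, with NFKB2, a subunit of NF-kB, at 1.45 ± 0.19 and the cytokine LIF at 1.34 ± 0.16. The EGF ligand and ERK feedback list had 7 of 24, among them IER3 and ERRFI1, and the YAP and TEAD target list 5 of 20, with AXL, a receptor tyrosine kinase, at 1.5 ± 0.24. None of these 3 lists had a gene with a lower response in SW620. Dropping 1 library at a time gave 4 or 5 genes for the NF-kB list, 3 to 9 for the ERK list (3 on dropping either SW620 control) and 3 to 7 for the YAP list (3 without SW620 control replicate 1 and without SW620 caffeine replicate 2); 1 YAP target was called lower when SW480 caffeine replicate 2 was dropped.

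Genes that fell only in SW620 included Wnt targets. Of 22 tested Wnt target and stem cell genes 5 had a lower response in SW620 and 0 a higher one (22.7%, median interaction -0.2). APCDD1, an inhibitor of Wnt signalling, fell from 69.7 and 69.2 to 26 and 23.5 CPM in SW620 and stood at 1885.3 and 1843.1 without and 1751.1 and 1544.5 with caffeine in SW480 (interaction -1.31 ± 0.18, adjusted p = 0.000355). LGR5, the R-spondin receptor of intestinal stem cells, fell from 116 and 113.5 to 42.7 and 52.3 CPM in SW620 and was at 5.45 to 7.14 CPM in SW480 (interaction -0.97 ± 0.22). NOTUM, SP5 and the opposite gene ASCL2 were the others, while AXIN2, LEF1 and RNF43 were among the 17 members not called. The Wnt count was 2 without SW620 control replicate 1, 3 on dropping SW620 control replicate 2 or SW620 caffeine replicate 1, and at most 6.

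By size, the SW620-only falls were led by genes of low level. GPX8, a peroxidase of the endoplasmic reticulum, measured 4.71 and 5.41 CPM without and 1.07 and 1.36 with caffeine in SW620 and 15.9 and 17.3 without and 15.4 and 14 with caffeine in SW480 (interaction -1.86 ± 0.29, adjusted p = 0.000901). SORCS2, a sorting receptor, went from 22.8 and 22.4 to 7.74 and 9.51 CPM in SW620 (interaction -1.9 ± 0.22), and its SW480 value of 0.52 ± 0.15 had an adjusted p of 0.0646. CCER2 (-2.07 ± 0.42), the forkhead factor FOXD1 (-1.94 ± 0.38), the sterol exporter ABCA1 (-1.92 ± 0.46), MANEAL (-1.82 ± 0.35), CTHRC1 (-1.82 ± 0.43) and ZNF718 (-1.76 ± 0.34) were the others. FOXD1 lost its interaction call without SW620 caffeine replicate 2, ABCA1 without SW480 caffeine replicate 2, SW620 control replicate 1 or SW620 caffeine replicate 2, and CTHRC1 without any SW620 library other than caffeine replicate 1. The immunoproteasome subunit PSMB9 belonged to this class too, as the only called gene of 20 in the immunoproteasome and MHC class I list (5%, interaction -1.49 ± 0.24), while 0 of 34 constitutive proteasome genes were called.

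The 162 genes called only in SW480 comprised 85 that rose and 77 that fell. For 144 of them the 95% interval in SW620 lay within 1 of 0, and 48 had an unadjusted p under 0.05 there. The median SW480 log2 fold changes were 0.77 for the risers and -0.77 for the fallers, so this margin too can hold a response of that size. TNFSF10, which encodes the death ligand TRAIL, measured 7.99 and 8.23 CPM without and 2.64 and 1.32 with caffeine in SW480, and 23.4 and 23 without and 28.9 and 27 with caffeine in SW620. The SW480 libraries did not overlap and all lay below those of SW620. The SW480 log2 fold change was -2.1 ± 0.24 (adjusted p = 0.000198), the SW620 value was 0.27 with a 95% interval of -0.09 to 0.62, and the interaction was 2.37 ± 0.29 (adjusted p = 0.000127). TNFRSF10D, a decoy receptor for TRAIL, also fell only in SW480, from 67.8 and 54 to 34.4 and 31.9 CPM, with 38 and 36.8 without and 49.9 and 44.6 with caffeine in SW620 (interaction 1.22 ± 0.2).

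ADORA2B, the low-affinity adenosine receptor and a direct target of caffeine, fell in SW480 from 15.6 and 18.7 to 10.4 and 7.66 CPM. In SW620 it measured 15.3 and 14.4 CPM without and 20.8 and 19.4 with caffeine, a log2 value of 0.43 ± 0.16 with a 95% interval of 0.09 to 0.77 and an adjusted p of 0.0869. The 4 controls lay between 14.4 and 18.7 CPM, and with caffeine the SW620 libraries lay above and the SW480 libraries below them (interaction 1.37 ± 0.24, adjusted p = 0.00218). Among 8 tested genes of adenosine receptors and handling, 2 were called: ADORA2B and ENTPD1, an ectoenzyme that degrades ATP, which fell only in SW620. Of 13 tested phosphodiesterases 3 were called: PDE9A, which rose only in SW620 (interaction 1.12 ± 0.22), PDE8A, called in neither line, and PDE2A, which rose only in SW480. PDE2A had 14 counts over the SW620 controls and 3 over the caffeine libraries, so its SW620 value is close to the limit of counting.

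SPNS2, the exporter of sphingosine-1-phosphate, rose from 7.93 and 10.3 to 23.4 and 29.6 CPM in SW480 and stood at 214.1 and 212.9 without and 230.1 and 234 with caffeine in SW620 (interaction -1.42 ± 0.21, adjusted p = 0.000538). CEMIP, a hyaluronan-degrading protein, rose from 29.6 and 27.4 to 64.7 and 63.1 CPM in SW480, with 506.4 to 587.5 CPM in SW620. CKB, the brain-type creatine kinase, and EEF1A2, a translation elongation factor, fell only in SW480, with interactions of 1.23 ± 0.19 and 1.06 ± 0.17. CKB went from 42.4 and 46.8 to 17.9 and 17.5 CPM in SW480, and in SW620 stayed between 34.7 and 40.5 CPM. CEMIP, CKB and EEF1A2 were chosen after their values were seen, since 7 genes alone kept this class without each library: these 3, PSD2, SESN2, SPNS2 and TNFSF10.

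Of the further SW480-only genes named by size, IDNK (-1.75 ± 0.33), ZNF502 (-1.6 ± 0.35) and PLEKHG4 (-1.49 ± 0.27), a guanine nucleotide exchange factor, kept the interaction call without each library. LCN12, CYP2D6, INE1 and TXNDC5 among those that rose lost it without SW480 caffeine replicate 2, as did PKD1L2, SHANK1, SALL4 and RHOBTB1 among those that fell. For LCN12 this was the sole library whose omission lost the call. CYP2D6, PKD1L2, SHANK1 and RHOBTB1 also lost it without SW620 control replicate 2, and all of these but PKD1L2 without SW620 caffeine replicate 2. PKD1L2, SHANK1 and RHOBTB1 lost it on dropping SW480 control replicate 1, and SHANK1 on dropping SW620 control replicate 1. SALL4 lost it on dropping either SW620 control or SW620 caffeine replicate 1. INE1 lost it without SW480 control replicate 1, SW620 control replicate 2 or either SW620 caffeine library, and TXNDC5 without any library but SW480 control replicate 2 and SW480 caffeine replicate 1. TXNDC5 shares 2658 exon bases with the readthrough gene BLOC1S5-TXNDC5, and CYP2D6 has near-identical neighbours, so that their reads may be split. EFNB3, an ephrin, fell from 30.9 and 24.3 to 16.3 and 16.4 CPM in SW480 and had an adjusted p of 0.0529 in SW620, where it measured 0.607 and 0.702 without and 1.49 and 1.21 with caffeine; it lost the interaction call without SW620 control replicate 1.

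A further 173 genes were called for the interaction but in neither line, 84 higher and 89 lower in SW620. All 173 had opposite signs, which follows largely from how the class is defined. With equal signs the interaction would be smaller than the larger response and have a larger standard error. In these 173 genes the difference passed the test while each line's own change did not. LIME1 (-1.69 ± 0.37), TRIM16L (-1.54 ± 0.41), THEMIS2 (1.51 ± 0.43) and RAB43 (1.49 ± 0.38) had the largest values, at 10.2 CPM or less in every library. Each lost its call without SW620 control replicate 1 or 2, among others. LIME1 shares 1538 exon bases, and RAB43 3956, with another annotated gene on the same strand. Reads there cannot be assigned with certainty. ATF4 itself belonged to this class, with 0.44 in SW480 and -0.24 in SW620. Like every gene of the class, it lost the interaction call in some fit with a library left out. Some line-only genes had few counts in at least 1 line. INTS4P1 had 267 counts over the SW620 controls and 30 over the caffeine libraries, against 0 and 5 in SW480. TCAF2 had 16 and 146 in SW620, against 10 and 15, TMCC3 had 0 and 7 in SW620, against 29 and 16, and FNDC4 and ST3GAL1 were under 2 CPM in every SW620 library.

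**Figure D4:**
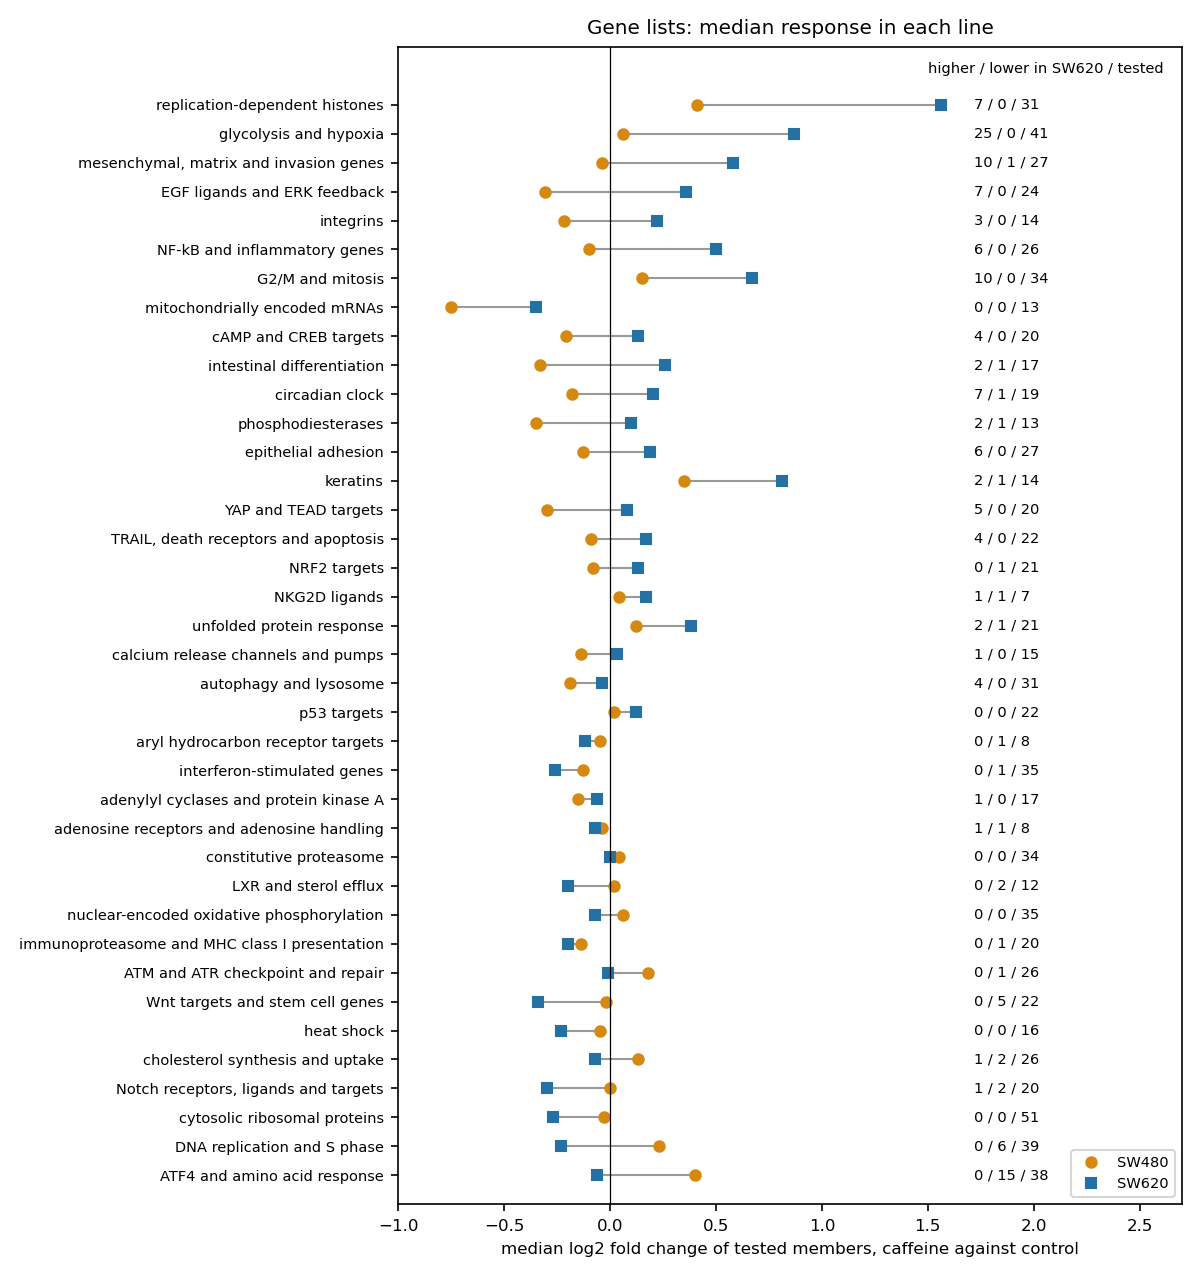
Median log2 fold change with caffeine over the tested members of each list of at least 7 genes, in SW480 (circles) and SW620 (squares), sorted by median interaction; the numbers on the right count members with a higher and a lower response in SW620 and members tested. The histone list (1.56) and the glycolysis and hypoxia list (0.87) lie farthest to the right in SW620, and the ATF4 list is at the bottom, with a median of 0.4 in SW480 and -0.06 in SW620.

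Several lists held no gene called for the interaction. These were p53 targets (22 tested), constitutive proteasome subunits (34), heat shock genes (16), nuclear-encoded oxidative phosphorylation genes (35), mitochondrially encoded mRNAs (13) and cytosolic ribosomal proteins (51), against 6.71% of all tested genes. The mitochondrially encoded mRNAs had medians of -0.75 in SW480 and -0.35 in SW620, and 12 were called when SW480 caffeine replicate 1 was left out. The other counts of 0 also moved with single libraries. Without SW480 control replicate 2, edgeR called 11 ribosomal protein, 5 oxidative phosphorylation, 3 proteasome and 3 heat shock genes lower and 2 p53 targets higher in SW620. Dropping SW480 caffeine replicate 1 gave 2 ribosomal protein genes higher and 1 oxidative phosphorylation gene in each direction, dropping SW480 caffeine replicate 2 gave 1 ribosomal protein gene lower, and dropping SW480 control replicate 1 gave 1 p53 target higher. Of the 8 libraries, SW480 caffeine replicate 2 had the lowest mitochondrial share, and the interaction counts with the mitochondrially encoded genes left out of the fit were 1191 in all and 62 opposite.

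The count of genes in each class depended on single libraries. The interaction count ran from 451 without SW620 control replicate 2 to 2188 without SW480 control replicate 2, and was 696 with SW480 caffeine replicate 2 left out. It was also outside 1.5 times the count of 1185 without SW620 control replicate 1 (489) and without SW620 caffeine replicate 2 (612). The opposite class held 10 genes when SW480 caffeine replicate 2 was left out and 182 when SW480 control replicate 2 was. All 64 opposite genes kept both signs in each of the 8 fits with a library left out. This follows largely from the selection, since each was called in both lines with opposite signs when all libraries were used. The class itself was kept in all 8 fits by 5 genes, CHAC1, CPLX2, GIPR, TMC6 and TMC8, by 170 of the 780 SW620-only genes and by 7 of the 162 SW480-only genes. The interaction call was kept in all 8 fits by 340 of the 1185 genes. Among genes described above with their values, the interaction call was lost by KIF20A without SW620 control replicate 2, by NOTUM when SW620 control replicate 1 was dropped, by FOS on dropping either SW620 control, by E2F1 without SW620 control replicate 1 or SW480 caffeine replicate 2, by LGR5 without either SW620 control or SW620 caffeine replicate 1, and by PDE2A without SW480 caffeine replicate 2, SW620 control replicate 1 or SW620 caffeine replicate 2. ENTPD1 kept it only when SW480 control replicate 2 or SW480 caffeine replicate 2 was dropped.

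**Figure D5:**
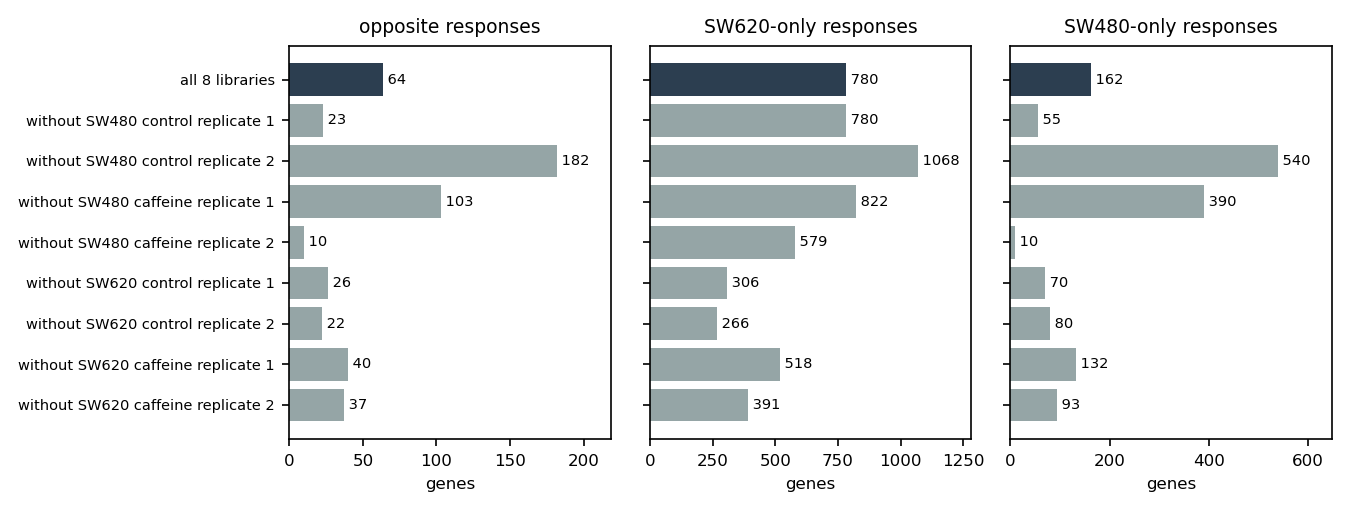
Number of genes (bars) in the opposite, SW620-only and SW480-only classes with all 8 libraries (dark) and with each library left out in turn (grey). The opposite and SW480-only classes are smallest, at 10 genes each, without SW480 caffeine replicate 2, and the SW620-only class is smallest, at 266, without SW620 control replicate 2.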

How the data were processed

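Poly-A RNA of the 8 libraries (2 per group) was prepared with a directional kit and read as 75 bp single-end reads on a NextSeq 500, from RNA with an integrity number of at least 8, per the labels' protocols. The authors deposited raw counts of reads per Ensembl gene for each library; the submitters' processing notes name Trim Galore, STAR 2.7.3a, featureCounts 2.0.5 and hg38. The strand setting and annotation release are not given in the sources used here.

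Assignment totals were dropped, leaving 62649 genes, of which 35897 had any count and 17671 passed filterByExpr. The counts were fitted with edgeR 4.0.16 (R 4.3.3; TMM, robust quasi-likelihood) with all 8 libraries and 4 group means, and p-values were adjusted over all tested genes (Benjamini-Hochberg, threshold 0.05). Standard errors are the log2 fold change divided by the square root of F. The fit was tested on simulated data. Positions and exon overlaps came from GENCODE 29.

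Named genes other than list members were called for the interaction and did not overlap between treatments in a line where called. Those not taken as under 1 CPM also averaged a log2 CPM of 1 or more, and at least 1 CPM in each line. List members were taken from all tested members, called or not. The 10 largest opposite genes per direction (by the smaller of the 2 responses), 8 line-only genes per direction, 3 same-direction genes per line, 4 called in neither line, 3 per class under 1 CPM in the other line, and up to 4 members of each of 41 lists by adjusted p were taken. The results of some members are not reported here. Genes outside this rule were chosen after their values were seen. The members and lists were chosen with earlier results of these data known.

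No replicate block was used. Alternatives were DESeq2 size factors, no filter, the DESeq2 1.42.0 Wald test, limma-voom (limma 3.58.1) without and with library weights, blocks, another threshold, no mitochondrial genes, other class definitions and each library left out.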

Additional observations from a re-analysis of the deposited data

Results flagged for a closer look

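The caffeine response differed between SW480 and SW620 by the interaction test for 1185 genes, and the named ones are listed here with their interaction on the log2 scale (SW620 minus SW480, edgeR's quasi-likelihood test). No group had enough libraries to look for single libraries far from the others. Genes that rose in SW620 and fell in SW480 had 2.96 for EFNA3, 2.77 for TMC8, 2.27 for GIPR, 2.5 for LINC03061, 2.09 for P2RX1, 2.03 for CDA, 1.98 for AMOT, 1.69 for KIAA1217, 1.85 for FRMD4B and 2.13 for KLF9. Genes that fell in SW620 and rose in SW480 had -2.36 for IGFBPL1, -2.63 for CPLX2, -2.16 for CHAC1, -1.6 for ZNF688, -2.15 for CES3, -1.75 for ASCL2, -1.69 for HES6, -1.28 for GINS2, -1.53 for ADAMTSL2 and -1.23 for EPB41L4A-AS1. The genes that rose only in SW620 had 4.24 for LBH, 3.93 for EMP1, 3.56 for NDRG1, 3.55 for AKAP12, 3.16 for PTPRH, 2.78 for SLC2A3, 2.78 for H2BC4 and 2.58 for LINC00659. Those that fell only in SW620 had -2.07 for CCER2, -1.94 for FOXD1, -1.92 for ABCA1, -1.9 for SORCS2, -1.86 for GPX8, -1.82 for MANEAL, -1.82 for CTHRC1 and -1.76 for ZNF718. Those that rose only in SW480 had -1.75 for IDNK, -1.7 for CYP2D6, -1.68 for INE1, -1.68 for LCN12, -1.63 for TXNDC5, -1.6 for ZNF502, -1.49 for PLEKHG4 and -1.42 for SPNS2. Those that fell only in SW480 had 2.37 for TNFSF10, 1.86 for PKD1L2, 1.78 for EFNB3, 1.47 for EPAS1, 1.47 for SHANK1, 1.41 for SALL4, 1.39 for RHOBTB1 and 1.37 for ADORA2B. Genes that moved the same way in both lines and more in SW620 had 2.29 for H2BC11, 1.42 for H1-2 and -0.77 for COL27A1. Genes that moved the same way in both lines and more in SW480 had 1.2 for IGFL2-AS1 and 0.88 for MUC13. Genes called in neither line had -1.69 for LIME1, -1.54 for TRIM16L, 1.51 for THEMIS2 and 1.49 for RAB43. Genes called only in SW620, and under 1 CPM on average in SW480, had 5.93 for TMCC3, 2.91 for TCAF2 and -7.35 for INTS4P1. Genes called only in SW480, and under 1 CPM on average in SW620, had -3.48 for PDE2A, 2 for FNDC4 and 1.84 for ST3GAL1. Values for genes with 0 for libraries (TMCC3 and INTS4P1) depend on the prior count of the fit and are no bounds.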

How the results depend on the processing

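Each group had 2 libraries, and the counts moved with single libraries. None of the 145 named genes called for the interaction changed its sign under any alternative, and named list members not called were not checked. Of 145 named genes called, 94 kept the call under every alternative that used all libraries and 83 also without each library in turn. The DESeq2 Wald test gave an adjusted p for 141 of the 145 named genes, and the rest were judged by the other alternatives. Scaling by DESeq2 size factors gave 1234 calls, the DESeq2 Wald test 1386 and limma-voom 1091. These and the other alternatives that used all libraries, apart from those given next, stayed within 1.5 times the class counts reported.

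At a threshold of 0.01 the interaction was called for 430 genes (314 higher and 116 lower in SW620), with 6 opposite, 312 SW620-only, 24 SW480-only, 1 same-direction and 87 called in neither line. With no filter on low counts, 660 genes were lower in SW620, 318 were SW480-only and 13 moved the same way. Limma-voom gave 3 same-direction genes, and with library weights 24 opposite and 39 SW480-only genes. Of those 24, only 17 were among the 64 opposite genes reported, so most of the 64 left the class with library weights. The weights were 0.661 to 0.726 for the SW480 and 1.03 to 2.06 for the SW620 libraries. Caffeine calls from a separate fit of each line gave 90 SW480-only, 12 same-direction and 103 genes called in neither line. Counting point estimates of opposite sign, called or not, gave 994 opposite genes. The cause of these shifts was not tested.

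With a replicate block shared by the lines 1087 genes were called, and with a replicate block within each line 1435. The deviations of same-numbered libraries had correlations of -0.189 to 0.0265 between groups. With 2 libraries per group, these values cannot show whether same-numbered cultures were grown or prepared together.

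Leaving out 1 library at a time gave 451 to 2188 calls, of which 324 to 1319 were higher and 125 to 869 lower in SW620. The opposite class ranged from 10 to 182 genes, SW620-only from 266 to 1068, SW480-only from 10 to 540, same-direction from 2 to 16 and neither line from 81 to 387. When a library is left out its group has 1 library, which is assumed to vary like the other groups.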
